A study of Mus musculus with 12 samples.

Results

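The genotype difference common to quiescent and activated CD8 T cells was taken as the mean of 2 contrasts, KO minus WT at T0 and KO minus WT at T6, over all 12 arrays of the series (12 of 12, assigned by their titles). KO cells came from Cd4-Cre/Scapfl/fl male mice and WT cells from male littermates of genotype Cd4-Cre/Scap+/+, so the Cre recombinase under the Cd4 promoter was present in both genotypes. CD8 T cells were enriched from spleen with a kit and taken either quiescent (T0) or after 6 h on plate-bound antibody to CD3 with soluble antibody to CD28 (T6), with 3 arrays in each of the 4 groups. The design text gives 3 mice per genotype for the 6 arrays of each genotype, and the labels do not say which T0 and T6 arrays share a mouse, nor the age of the mice. PolyA RNA was hybridised to Affymetrix mouse arrays, and 34945 probe sets carrying 1 gene symbol were tested, for 18193 genes. All levels and differences below are on the log2(signal + 16) scale, on which a difference of 1 is a 2-fold change and changes of dim probe sets are understated.

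SCAP escorts the SREBP transcription factors from the endoplasmic reticulum to the Golgi, where proteases release their active part. SREBP-2 mainly drives cholesterol synthesis and uptake and SREBP-1 mainly fatty acid synthesis, and INSIG proteins retain the SCAP-SREBP complex in the endoplasmic reticulum when sterols are plentiful. T cells raise this lipid programme when they are activated and prepare to grow.

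Single arrays had median signals between 61.3 (WT T6 replicate 3) and 76.2 (KO T0 replicate 3), and correlations between arrays lay between 0.949 and 0.980. The first principal component (33.0% of the variance) separated the time points, and KO T6 replicate 2, followed by KO T0 replicate 2, lay farthest out on the second (13.8%). Cd8b1, the beta chain of CD8, lay between 13.17 and 14.55 on all arrays, and the brighter Cd4 probe set lay between 4.47 and 5.23. As a measure of RNA integrity and labelling, the 3′ probe set of Actb was set against its 5′ probe set. This difference was 0.13 higher in KO than in WT with time as strata (two-sided exact permutation p = 0.055, smallest possible 0.005). That of Gapdh was 0.12 higher (two-sided exact permutation p = 0.065). At T6 the Actb difference was 0.71, 0.62 and 0.79 in KO and 0.52, 0.45 and 0.54 in WT, without overlap. At T0 the genotypes overlapped (means 0.36 in KO and 0.30 in WT), and for Gapdh they overlapped at both times. The permutations moved arrays singly, although some arrays come from the same mouse.

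Scap, the targeted gene, was measured by 2 probe sets on chromosome 9. On the brighter one, Scap read 11.53, 11.03 and 11.23 in WT T0, 11.27, 10.83 and 10.93 in KO T0, 11.56, 11.55 and 11.60 in WT T6, and 11.11, 11.06 and 11.13 in KO T6. The genotypes overlapped at T0 and did not at T6. The shared difference was −0.36 ± 0.11 (SE; limma, adjusted p = 0.18, not called), and that of the dimmer Scap probe set was −0.19 ± 0.16 (limma, adjusted p = 0.64). Neither the floxed exons nor the probes' place in the transcript is given in the sources used here, so these values do not check the deletion.

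In the shared contrast, 114 of 34945 probe sets (0.326%) were called, that is, had a limma p under 0.05 after Benjamini-Hochberg adjustment over all probe sets tested. Of these, 35 (0.1% of those tested) were higher in KO and 79 (0.226%) were lower, for 30 and 72 genes. The median size of the difference among called probe sets was 0.84, and 38 of them differed by at least 2-fold, 19 in each direction. The called genes fell mainly into sterol pathway genes (13 probe sets, all lower), genes of chromosome 9 (31 further probe sets, 25 lower and 6 higher) and 70 other probe sets, 41 lower and 29 higher, the latter including the red cell gene Slc4a1 and the dendritic cell gene Siglech. When each array was centred on its median, 186 probe sets were called and 18.8% of them were higher in KO, against 30.7% of the 114.

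The count depended on single arrays and on whether same-numbered arrays were treated as belonging together. The labels do not say that they come from the same mouse. With genotype and replicate number as a random block (correlation 0.124) 60 probe sets were called, all of them among the 114. With 1 mean per replicate number, 3 against 3, none was called (limma, smallest adjusted p = 0.092, 3734 with unadjusted p under 0.05). The 60 were 8 of the 13 sterol probe sets, 16 of the 25 lower and 1 of the 6 higher on chromosome 9, and 21 of the 41 lower and 14 of the 29 higher elsewhere. Leaving out 1 array gave 113 calls without WT T6 replicate 1 and 100 without KO T6 replicate 2. The count was 21, 38 and 41 without WT T0 replicates 1, 2 and 3, 60 and 26 without WT T6 replicates 2 and 3, 18, 64 and 30 without KO T0 replicates 1, 2 and 3, and 20 and 52 without KO T6 replicates 1 and 3. All 114 kept their direction in each of these fits, which was nearly fixed because they were chosen on these same arrays. Of the 114, 14 probe sets of 12 genes were called in all 12 fits. Those included Insig1, Sc5d, both Cyp51 probe sets, Ppcdc, Bace1, Pxylp1 and Atm. P-values measure the spread between these arrays, some of which come from the same mouse.

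Sterol genes called in the shared contrast were all lower in KO, at both time points. Of 17 measured cholesterol synthesis enzymes, all had a negative shared difference and 7 were called lower, with a median of −0.39 beside 0.00053 over all probe sets tested. Of 16 measured genes of SREBP regulation and sterol uptake or trafficking, 2 were called lower, Insig1 and Srebf2, and the median was −0.21. With the blood cell covariate described below the medians were −0.81 and −0.062, and without both KO replicate 2 arrays that of the second list was −0.125, and −0.123 without both KO replicate 3 arrays. The cholesterol synthesis list averaged 9.15 ± 0.05 in WT T0, 8.80 ± 0.04 in KO T0, 9.78 ± 0.02 in WT T6 and 9.10 ± 0.23 in KO T6 (SD, n = 3 arrays each), and the KO and WT arrays did not overlap at either time.

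Upstream sequences of 4 of the sterol genes are shown because SREBPs bind sterol regulatory elements and the factor NF-Y, which often acts beside them, binds CCAAT boxes. Each is the 250 bases before a RefSeq start site (GRCm38.p6), written 5′ to 3′ on the gene's strand, with matches in capitals: TCACNCCAC for a sterol regulatory element and CCAAT, searched on both strands, so that ATTGG is CCAAT on the opposite strand. They are from chr13:119690101-119690350 (plus strand) for Hmgcs1, chr5:28071162-28071411 (plus) for Insig1, chr13:8885356-8885605 (plus) for Idi1 and chr5:4104698-4104947 (minus) for Cyp51.
Hmgcs1: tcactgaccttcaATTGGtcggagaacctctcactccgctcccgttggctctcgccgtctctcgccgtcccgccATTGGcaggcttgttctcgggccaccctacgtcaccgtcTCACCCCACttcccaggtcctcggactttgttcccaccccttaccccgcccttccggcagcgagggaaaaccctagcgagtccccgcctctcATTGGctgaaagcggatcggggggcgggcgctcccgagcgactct
Insig1: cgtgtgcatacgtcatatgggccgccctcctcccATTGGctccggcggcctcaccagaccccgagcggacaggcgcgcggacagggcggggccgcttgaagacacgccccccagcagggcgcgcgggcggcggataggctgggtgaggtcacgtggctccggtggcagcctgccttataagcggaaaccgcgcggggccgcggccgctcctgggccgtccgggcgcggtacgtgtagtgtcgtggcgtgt
Idi1: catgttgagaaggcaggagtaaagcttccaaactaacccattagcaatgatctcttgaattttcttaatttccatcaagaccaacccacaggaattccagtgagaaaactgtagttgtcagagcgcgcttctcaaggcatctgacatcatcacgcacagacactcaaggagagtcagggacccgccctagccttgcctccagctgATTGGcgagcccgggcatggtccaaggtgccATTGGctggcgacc
Cyp51: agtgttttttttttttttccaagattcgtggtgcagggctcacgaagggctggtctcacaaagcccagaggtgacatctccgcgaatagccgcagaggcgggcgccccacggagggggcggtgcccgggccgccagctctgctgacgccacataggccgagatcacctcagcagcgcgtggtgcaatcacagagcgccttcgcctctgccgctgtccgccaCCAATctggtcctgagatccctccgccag

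Hmgcs1 held 1 match to TCACNCCAC, starting 137 bases before the start site, and 3 to CCAAT, and none of its matches overlapped. Idi1 held 2 matches to CCAAT, and Insig1 and Cyp51 held 1 each. Of the 9 sterol genes called lower, 8 had a promoter in the table (Sqle did not). Over windows from 250 bases before to 50 bases after the start, all 8 held CCAAT and 1 held TCACNCCAC. The shares were 42% and 1.46% of the 14452 tested genes with a window, and 15 of 18 sterol genes that were not called (83.3%) held CCAAT as well. Only these exact strings were searched, so other forms of the elements would be left unmarked, and no match does not mean no element. These matches describe letters and are not measured binding.

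Insig1, the retention protein of the SCAP-SREBP complex and itself a sterol-regulated gene, had one of the smallest adjusted p-values. It read 10.49, 10.22 and 10.24 in WT T0 and 9.55, 9.51 and 9.54 in KO T0, then 10.81, 10.87 and 10.86 in WT T6 and 9.77, 9.79 and 9.54 in KO T6. Every KO array lay below every WT array, including KO T6 below WT T0. The shared difference was −0.96 ± 0.08 (SE), a 1.95-fold lower signal (limma, adjusted p = 0.002), and was called in all 12 fits that left out 1 array.

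Srebf2, which encodes SREBP-2, read 9.71, 9.63 and 9.57 in WT T0, 9.16, 8.81 and 9.15 in KO T0, 10.13, 10.13 and 10.42 in WT T6, and 9.51, 9.26 and 9.47 in KO T6. The genotypes did not overlap at either time, and the shared difference was −0.71 ± 0.10 (SE; limma, adjusted p = 0.026). It was called in 4 of the 12 fits without 1 array, and a dimmer Srebf2 probe set differed by −0.067 and was not called. Srebf1, which encodes SREBP-1, also separated the genotypes at both times but was not called (−0.38 ± 0.08; limma, adjusted p = 0.09).

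Among early enzymes of the mevalonate route, Hmgcs1 (HMG-CoA synthase) read 11.30, 11.24 and 11.15 in WT T0, 10.90, 10.70 and 11.04 in KO T0, 12.34, 12.17 and 12.41 in WT T6, and 11.47, 11.24 and 11.45 in KO T6. KO lay below WT at both times, by −0.63 ± 0.09 (SE; limma, adjusted p = 0.027) in the shared contrast, and KO T6 levels were close to WT T0 levels. This Hmgcs1 probe set was called in 4 of the 12 fits without 1 array and with the random block (limma, adjusted p = 0.044). Another called Hmgcs1 probe set gave −0.72, and its genotypes overlapped at T0. That one was called in 0 of the 12 fits and not with the random block (limma, adjusted p = 0.0625). Idi1, the isomerase that supplies isoprenoid units, read 9.78, 9.66 and 9.84 in WT T0, 9.39, 9.59 and 9.20 in KO T0, 11.67, 11.58 and 11.64 in WT T6, and 10.03, 10.77 and 9.82 in KO T6. KO was below WT at both times, and KO T6 replicate 2 was the highest KO array. The shared difference of Idi1 was −0.90 ± 0.15 (SE; limma, adjusted p = 0.047), and it was called in 1 of the 12 fits without 1 array and not with the random block (limma, adjusted p = 0.067). Fdps, which joins isoprenoid units, differed by −0.49 and was not called (limma, adjusted p = 0.16).

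Sqle, squalene epoxidase, acts on squalene in the sterol branch. It read 9.13, 9.42 and 9.11 in WT T0, 8.31, 8.54 and 7.82 in KO T0, 10.55, 10.44 and 10.63 in WT T6, and 9.14, 9.79 and 8.79 in KO T6. The genotypes did not overlap at either time, and the shared difference was −1.15 ± 0.18 (SE), 2.21-fold lower (limma, adjusted p = 0.035; called in 2 of the 12 fits without 1 array). Cyp51, lanosterol demethylase, read 8.47, 8.13 and 8.18 in WT T0, 7.46, 7.55 and 7.87 in KO T0, 10.41, 10.25 and 10.44 in WT T6, and 8.79, 8.82 and 8.21 in KO T6. No arrays overlapped within a time point. The difference was −1.19 ± 0.13 (SE), 2.29-fold lower (limma, adjusted p = 0.012), another called Cyp51 probe set gave −1.05, and a dim one, not called, gave −0.21.

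Further along the same branch, Msmo1, a sterol methyl oxidase, differed by −0.65 ± 0.11 (SE; limma, adjusted p = 0.046) and was not called with the random block (limma, adjusted p = 0.081). It was called in 1 of the 12 fits without 1 array. Hsd17b7, a sterol ketoreductase, was called on 3 of its 4 probe sets, with differences from −0.80 to −0.65. Its brightest probe set was called in 5 of the 12 fits and with the random block (limma, adjusted p = 0.038), and the other called ones were not called with that block.

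Sc5d, the sterol desaturase of a late step, belongs to both main groups, because its gene lies on chromosome 9 with Scap. It read 9.93, 9.50 and 9.73 in WT T0, 8.66, 8.57 and 8.76 in KO T0, 10.52, 10.47 and 10.24 in WT T6, and 8.76, 9.06 and 8.65 in KO T6. All KO arrays lay below all WT arrays, and the difference was −1.32 ± 0.11 (SE), 2.5-fold lower (limma, adjusted p = 0.002). Dimmer Sc5d probe sets gave −0.45 and −0.38 and were not called. Dhcr7 (−0.37) and Lss (−0.39), a reductase and the cyclase of the same pathway, were not called.

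**Figure D1:**
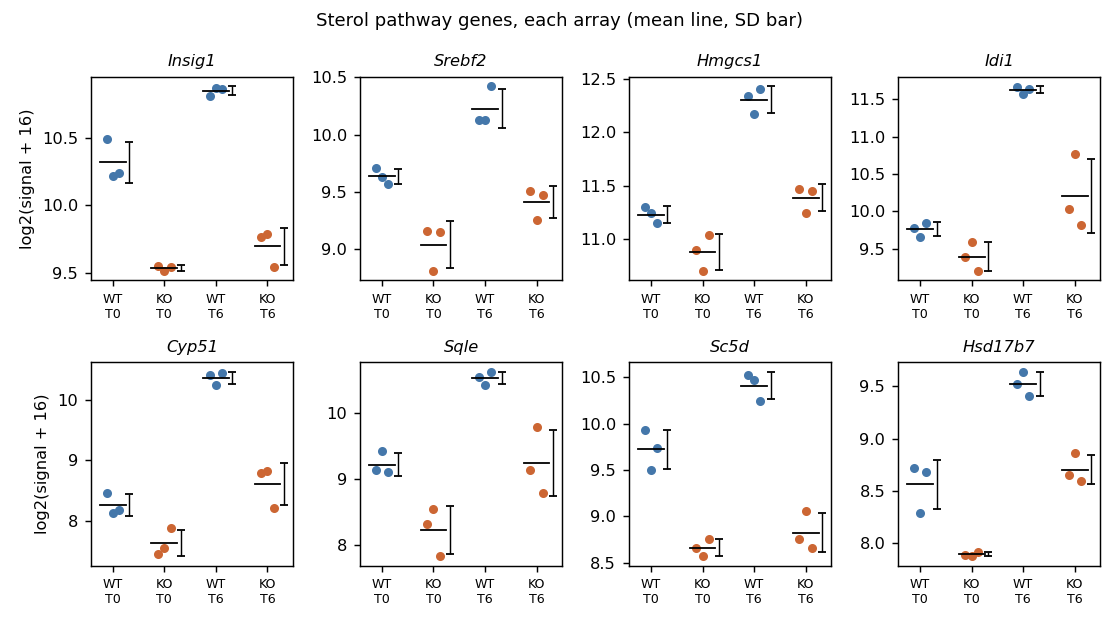
Signal of 8 sterol pathway genes as log2(signal + 16) on the vertical axis, with 1 point per array, a line at the mean of the 3 arrays of each group and a bar of the mean ± 1 SD beside it. In each panel the KO arrays (orange) lie below the WT arrays (blue) of the same time point, and for Insig1 and Sc5d all KO arrays lie below all WT arrays.

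Other lipid genes did not pass the test. None of 20 measured fatty acid synthesis and activation genes was called, and their median was −0.08. Aacs, which activates acetoacetate, differed by −0.33 ± 0.08 (SE; limma, adjusted p = 0.11), and its KO arrays lay below WT at both times. Acaca (acetyl-CoA carboxylase) differed by −0.31, Fasn (fatty acid synthase) by −0.18 and Acsl3 (an acyl-CoA synthetase) by −0.51, whereas Acss2 (acetyl-CoA synthetase) differed by 0.35 and Scd1 (stearoyl-CoA desaturase) by 1.43 ± 0.42 (SE; limma, adjusted p = 0.17). Scd1 read between 6.47 and 8.07 in WT and between 7.44 and 9.99 in KO, and the genotypes overlapped at both times. With a covariate for blood cell markers, described below, the value of Scd1 turned to −0.38 and that of Fasn to 0.0054. None of 8 LXR receptors and targets was called (median 0.08). Abcg1, a cholesterol exporter, differed by −0.27.

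Chromosome 9, which carries Scap, held a larger share of calls than the rest of the genome. It had 32 called probe sets of 1886 tested (1.7%), which was 28.1% of all calls against 5.4% of the probe sets tested. The calls belonged to 29 genes, 25 lower and 4 higher in KO. The median shared difference of all chromosome 9 probe sets was 0.0011, so the chromosome as a whole was not lower. Of the 15 named falls, the largest among called genes with signal above the median and no overlap of arrays, 13 were on chromosome 9, as was 1 of the 15 named rises.

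In the order of protein-coding genes of the RefSeq annotation, with Scap at place 0, 27 of these genes lay from place −673 to place 118. The bounds of the bins below were chosen with these positions known. No probe set was called among 375 at or before place −680, where the differences had an SD of 0.26, against 30 of 1424 (2.11%) from there onwards, where the SD was 0.415. The stretch with the largest share, places −680 to −500, held 14 calls among 297 probe sets (4.71%). None was called among the 154 probe sets after place −100 up to Scap itself. The nearest called gene before Scap was Mapkapk3, a stress kinase at place −103 (−0.69 on the called probe set). The nearest after it was Tmie, a hair cell protein at place 17 (−1.27 on the called probe set). Mapkapk3 and Zfp445, the called gene at place 118, were called in 0 of the 12 fits without 1 array, and Tmie in 1. With the random block they were not called (limma, adjusted p = 0.0725, 0.0703 and 0.0536). The places of the calls nearest Scap and of the last call therefore depend on single arrays.

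**Figure D2:**
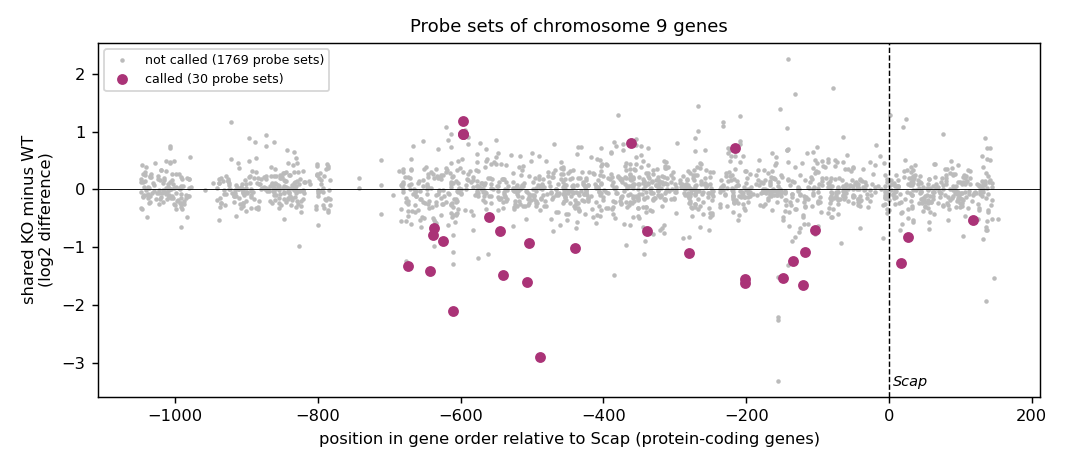
Shared KO minus WT difference (log2) of chromosome 9 probe sets against the place of their gene in the protein-coding gene order, with Scap at 0; called probe sets are purple and the others grey. Called probe sets lie from place −673 to place 118, with none before place −680.

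Ppcdc, an enzyme of coenzyme A synthesis, had the largest fall among the called genes named. The called probe set of Ppcdc read 8.0, 8.12 and 7.98 in WT T0, 5.59, 5.74 and 4.8 in KO T0, 7.95, 8.48 and 7.24 in WT T6, and 4.29, 5.2 and 4.73 in KO T6. Every KO array lay below every WT array, and the difference was −2.90 ± 0.24 (SE; limma, adjusted p = 0.002). The KO means of 5.37 at T0 and 4.74 at T6 lay below the median of all probe sets (6.82), where the constant added before the logarithm sets the size of a change. That size was −3.84 with an added 1 and −1.86 with an added 64. A brighter probe set of Ppcdc differed by −0.35 and was not called (limma, adjusted p = 0.25).

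Bace1, the beta-secretase, read 9.24, 8.65 and 9.30 in WT T0, 5.89, 6.03 and 5.83 in KO T0, 6.98, 7.54 and 6.90 in WT T6, and 5.76, 6.53 and 5.97 in KO T6. The genotypes did not overlap, and the difference was −3.14 at T0 and −1.05 at T6, or −2.10 ± 0.18 (SE) in the shared contrast (limma, adjusted p = 0.002). Its 3 dimmer probe sets gave values from −1.29 to −0.79 and were not called. Pxylp1, a xylose phosphatase of proteoglycan synthesis, read 10.33, 10.26 and 10.46 in WT T0, 8.74, 8.01 and 8.51 in KO T0, 8.37, 8.55 and 8.45 in WT T6, and 7.43, 7.19 and 7.26 in KO T6. Its genotypes did not overlap at either time, and its 2 called probe sets differed by −1.55 and −1.61. These genes kept their calls when any 1 array, or both arrays of any replicate number, were left out, apart from the dimmer Pxylp1 probe set, called in 5 of the 6 latter fits.

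Probe sets of one gene often disagreed on chromosome 9. The called Atm probe set, for the DNA damage kinase, differed by −1.48 ± 0.14 (SE; limma, adjusted p = 0.0049), while the brighter one differed by −0.31 and was not called. Rcn2, a calcium-binding protein of the endoplasmic reticulum, gave −1.60 on 1 probe set and −0.04 on the other. Tmem30a, a flippase subunit, gave values from −1.10 to −0.095 over 5 probe sets, and Tmie from −1.27 to −0.22 over 3. Rps25, a ribosomal protein gene with 1 probe set, differed by −1.41 ± 0.19 (SE; limma, adjusted p = 0.02). The other named falls on this chromosome were Abhd14b (−1.65), Tmem108 (−1.53), Pik3r4, a regulatory subunit of the class III PI3 kinase (−1.24), and Parp3 (−1.09).

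The 4 chromosome 9 genes that rose include Cadm1, an adhesion molecule (0.96 ± 0.15, SE; limma, adjusted p = 0.038, with 3 of 4 probe sets called), Anxa2, an annexin of memory and myeloid cells (0.80 ± 0.13, SE; limma, adjusted p = 0.043) and Pcolce2 (0.72); the fourth is listed as 4930447F24Rik (1.72). Without the 1886 chromosome 9 probe sets, 52 of the remaining 33059 were called, against 82 (0.248%) when they were in the table.

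Some uncalled chromosome 9 genes had larger differences than most called ones, and in these single arrays of a genotype read like the other genotype. The next genes were singled out after their values were seen. Rab6b, a small GTPase at place −156, read 9.17, 9.24 and 8.98 in WT T0, 4.48, 8.85 and 4.29 in KO T0, 9.29, 9.54 and 9.91 in WT T6, and 4.51, 9.03 and 5.11 in KO T6 on its brightest probe set. KO replicate 2 read just below the WT arrays at both times, and KO replicates 1 and 3 were far below them. The shared difference was −3.31 ± 0.91 (SE; limma, adjusted p = 0.155, not called). Its other 3 probe sets differed by −2.26, −2.20 and −1.52.

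A Lztfl1 probe set, for a ciliary trafficking protein at place 136, read 6.64, 7.85 and 7.68 in WT T0, 4.96, 7.12 and 5.04 in KO T0, 7.0, 7.80 and 7.93 in WT T6, and 4.68, 7.03 and 4.43 in KO T6. KO replicate 2 lay within the WT range here and replicates 1 and 3 below it, and the difference was −1.94 ± 0.53 (SE; limma, adjusted p = 0.152), while the brightest Lztfl1 probe set gave 0.29. For Cpne4, a copine at place −142, the arrays that stood apart were in WT. It read 5.18, 8.41 and 4.30 in WT T0, 8.21, 8.06 and 8.36 in KO T0, 4.26, 4.23 and 7.26 in WT T6, and 7.72, 7.27 and 7.58 in KO T6. WT T0 replicate 2 and WT T6 replicate 3 read close to the KO arrays, and the difference was 2.26 ± 0.71 (SE; limma, adjusted p = 0.199). These genes give 1 divergent array in a group at each time, under the same replicate number in KO and under different numbers in WT.

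T cell identity genes had slightly lower values in KO. Of 13 measured, all had negative values at both times, with a median of −0.25, and 1 was called. That gene, Cd3e, encodes a chain of the T cell receptor complex and lies on chromosome 9, at place −625 in the gene order around Scap. Cd3e read 13.24, 13.42 and 13.07 in WT T0, 12.45, 12.43 and 12.37 in KO T0, 12.75, 12.81 and 13.19 in WT T6, and 12.16, 11.93 and 11.84 in KO T6. The genotypes did not overlap at either time, and the difference was −0.88 ± 0.11 (SE; limma, adjusted p = 0.015). Cd3g, another chain encoded on chromosome 9, differed by −0.43 (limma, adjusted p = 0.11). Cd8b1 differed by −0.25 and Cd8a, the alpha chain, by −0.24, and neither was called.

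Markers of other blood cells had higher values in KO. All 13 measured B cell markers had positive values at both times (median 1.11, none called), as did 7 of 7 erythroid markers (median 1.17, 1 called), and all 17 myeloid markers had a positive shared difference (median 0.54, 1 called). The B cell list mean ranged from 7.80 to 8.71 in WT T0, 8.52 to 10.15 in KO T0, 7.18 to 8.17 in WT T6 and 8.35 to 9.50 in KO T6, so that the genotypes overlapped at T0 and not at T6. The erythroid list mean ranged from 8.43 to 8.73 in WT T0, 9.19 to 11.42 in KO T0, 7.91 to 8.86 in WT T6 and 8.72 to 11.66 in KO T6, and overlapped at T6 and not at T0. The myeloid list mean ranged from 9.06 to 9.70 in WT T0 and 9.66 to 10.33 in KO T0, and from 6.66 to 7.36 and 7.61 to 8.21 at T6, and overlapped at T0 and not at T6. In purified bulk RNA, more cells of a type and more RNA per cell cannot be told apart.

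**Figure D3:**
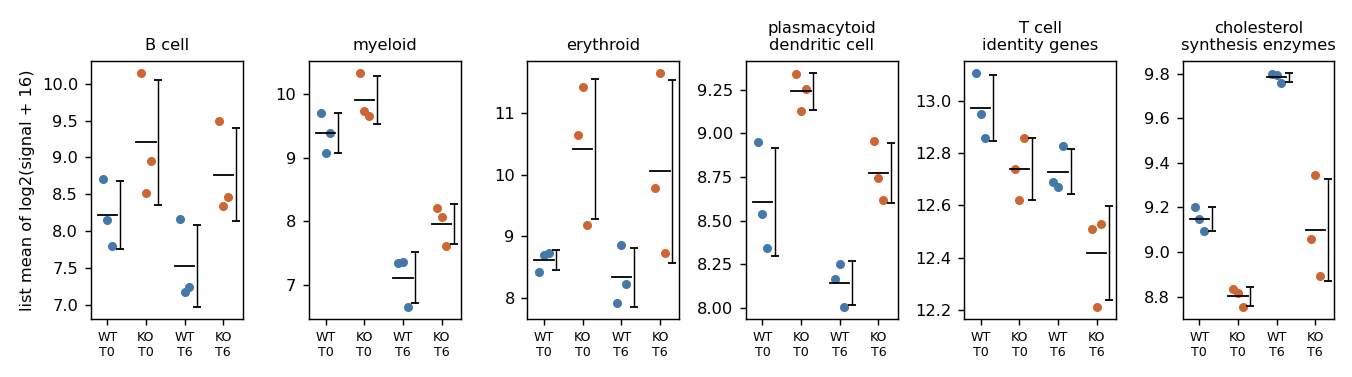
Mean log2(signal + 16) of the measured members of 5 marker lists and of the cholesterol synthesis list, with 1 point per array, a line at the group mean and a bar of the mean ± 1 SD beside it. The B cell, myeloid, erythroid and plasmacytoid dendritic cell lists are higher in KO (orange) at each time on average, and the cholesterol synthesis list is lower in every KO array than in the WT arrays (blue) of its time. The plasmacytoid dendritic cell list was made after its values were seen.

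Slc4a1, the anion exchanger of red cells, had the largest rise. It read 8.13, 7.66 and 7.01 in WT T0, 12.32, 13.51 and 10.14 in KO T0, 7.74, 8.86 and 8.51 in WT T6, and 11.86, 13.79 and 10.09 in KO T6. The genotypes did not overlap, but KO values spread widely, highest in replicate 2 at both times and lowest in replicate 3. The difference was 3.97 ± 0.68 (SE), 15.7-fold (limma, adjusted p = 0.046; called in 2 of the 12 fits without 1 array and not with the random block, limma, adjusted p = 0.063). Another called Slc4a1 probe set gave 3.84, and the Slc4a1 probe set that was not called gave 0.255. Epb42, a protein of the red cell membrane skeleton, differed by 2.73 and was not called (limma, adjusted p = 0.13).

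Tyrobp, the DAP12 adaptor of myeloid and natural killer cells, read 11.19, 10.78 and 10.63 in WT T0, 11.88, 11.45 and 11.42 in KO T0, 8.04, 8.29 and 7.55 in WT T6, and 10.05, 9.39 and 9.50 in KO T6. KO lay above WT at both times, by 1.20 ± 0.18 (SE) in the shared contrast, 2.3-fold (limma, adjusted p = 0.028). It was called in 3 of the 12 fits without 1 array. Fcer1g, another member of the myeloid list, differed by 0.89 and Mpeg1, a pore protein of macrophages, by 1.15 (limma, adjusted p = 0.071), and neither was called. The B cell genes Ms4a1 (2.08), Ly6d (1.71), Cd79a (1.5) and Cd74 (1.11) were not called either. Ifi30, a lysosomal reductase of antigen-presenting cells, rose by 0.94, and the called Tlr4 probe set, for the endotoxin receptor and singled out after its values were seen, by 1.22. On that Tlr4 probe set the genotypes overlapped at T0, and the highest group mean of 6.98 lay near the median of all probe sets (6.82). Its difference ran from 0.59 to 2.29 over the alternative fits, and the 4 Tlr4 probe sets gave −0.048 to 1.22.

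Several of the named rises are markers of plasmacytoid dendritic cells, a list made after these values were seen. Of its 14 measured members 4 were called higher, beside 0.1% of all probe sets tested. In this list 9 had positive and 5 negative differences, and the median was 0.55. These values follow in part from how the list was made and are no independent evidence of a cell type. The negative ones were Ccr9 (−0.71), Irf7 (−0.14), Tlr9 (−0.034), Bst2 (−0.019) and Pacsin1 (−0.18 and −0.14 on its 2 probe sets), none of them called. Siglech, a lectin of these cells, read 7.40, 6.12 and 6.62 in WT T0, 8.22, 7.96 and 8.31 in KO T0, 5.69, 5.62 and 6.04 in WT T6, and 7.80, 7.25 and 7.36 in KO T6. The genotypes did not overlap at either time, and the difference was 1.57 ± 0.20 (SE), 2.97-fold (limma, adjusted p = 0.019; called in 8 of the 12 fits without 1 array).

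Klra17, an inhibitory Ly49 receptor, read 7.49, 6.82 and 6.40 in WT T0, 8.49, 7.99 and 8.63 in KO T0, 6.28, 5.86 and 5.79 in WT T6, and 7.58, 7.21 and 7.51 in KO T6. It was higher in KO without overlap at both times, by 1.46 ± 0.19 (SE; limma, adjusted p = 0.019). Mzb1, a chaperone of antibody-secreting and plasmacytoid dendritic cells, differed by 1.73 ± 0.26 (SE; limma, adjusted p = 0.03). Tcf4, the factor that directs plasmacytoid dendritic cell development, was called on 3 of its 6 probe sets, with differences from 0.98 to 1.27. Its brightest probe set gave 1.13 and was not called (limma, adjusted p = 0.072), and its lowest value was −0.12. Cadm1 also belongs to this list. Spib, another factor of these cells and of B cells, differed by 1.59 and was not called, and Ccr9, a homing receptor also made by T cells and encoded on chromosome 9, by −0.71. The remaining named rises were Ighg3, an immunoglobulin heavy chain (1.78), Reln (1.62), Eps8l1 (1.42), Eaf2 (1.08), Gpaa1 (1.02), Vcam1 (0.90) and Slc25a24 (0.89). With the random block Vcam1 and Slc25a24 were called, and the others were not (limma, adjusted p from 0.0593 to 0.0703). Those others were called in 1 or 2 of the 12 fits without 1 array. The lowest probe sets of Reln, Ighg3, Vcam1, Gpaa1 and Eps8l1 gave −0.086, 0.0041, 0.068, 0.35 and 1.13.

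**Figure D4:**
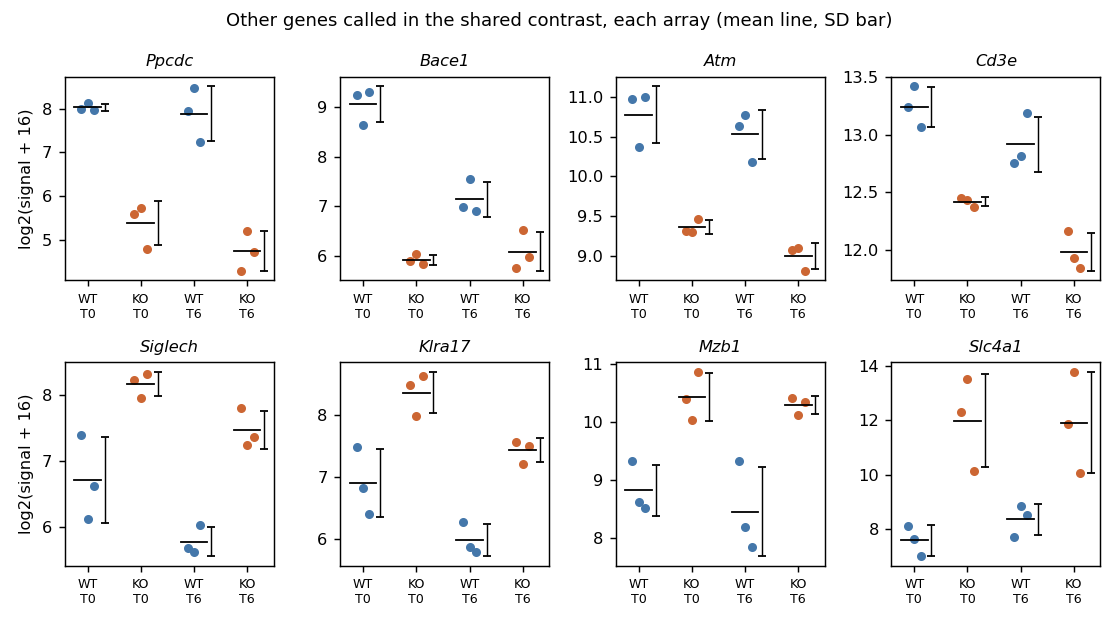
Signal of 8 other called genes as log2(signal + 16), with 1 point per array, a line at the group mean and a bar of the mean ± 1 SD beside it. Ppcdc, Bace1, Atm and Cd3e are lower and Siglech, Klra17, Mzb1 and Slc4a1 are higher in all KO arrays (orange) than in the WT arrays (blue) of the same time, and Slc4a1 has the widest spread in KO.

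Because these markers moved with genotype, the fit was repeated with the mean of the B cell, myeloid and erythroid lists of each array as a covariate. That mean ranged from 8.64 to 8.94 in WT T0, 9.27 to 10.37 in KO T0, 7.37 to 7.81 in WT T6 and 8.27 to 9.36 in KO T6, so it did not overlap between genotypes within a time. With the covariate no probe set was called (limma; 2185 with unadjusted p under 0.05, against 4727, or 13.5%, without it). The median over the 13 called sterol probe sets was −0.99 in place of −0.80, with a median SE of 0.22 in place of 0.11. For the 25 chromosome 9 probe sets lower in KO it was −1.25 in place of −1.10, and for the 29 other probe sets higher in KO it was 0.73 in place of 1.10. Slc4a1 and Tyrobp are among those 29 and also members of the lists in the covariate, so part of that change follows from its construction. With the Actb 3′ minus 5′ difference as the covariate, no probe set was called either (3457 unadjusted), and the 3 medians were −0.81, −1.07 and 1.10. The part of other cells and of RNA quality in each difference was otherwise not tested.

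Among further T cell lists, 1 representative probe set was called. None of 24 early activation genes was called (median 0.07); Tnfrsf9, the costimulatory receptor 4-1BB, differed by −0.43 (limma, adjusted p = 0.099). In the naive and quiescence list no representative probe set of 14 genes was called (median −0.14), although 1 other probe set of Btg1 was called lower, with Klf2 at −0.41 and Ccr7 at −0.32. Of 23 effector and memory genes, Anxa2 was called; Cd44 differed by 0.51 and Prf1, perforin, by −0.66, neither called. None of 20 ribosome biogenesis genes was called, although 18 had negative values (median −0.13; Polr1a −0.65, Nop58 −0.37). Lists for glycolysis (12 genes, median −0.05, Pkm −0.42), interferon response (17 genes, −0.18, Ifit3 −0.81) and ER stress (15 genes, 0.07) had no call, nor had those of CD4 T cells (4 genes, 0.26), natural killer cells (5 genes, 0.17) and platelets (5 genes, 0.31).

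Cell cycle genes had positive values without passing the test. All 23 measured were above 0, with a median of 0.66, and none was called. Birc5 (survivin) differed by 1.25 ± 0.43 (SE; limma, adjusted p = 0.24) and Mcm3, a replication helicase subunit, by 0.44. The list mean was 11.02, 11.64 and 10.59 in KO T0 and 10.26, 11.63 and 10.27 in KO T6, against 10.5 as the median of WT T0 (highest 10.81) and 9.87, 10.32 and 9.89 in WT T6. Replicate 2 was the highest KO array at both times, as it was for the erythroid list. Without both KO replicate 2 arrays the median was 0.30, and with the blood cell covariate it was 0.04.

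Among genes called lower outside both main groups, singled out after their values were seen, Klf6, a zinc finger factor, was called on 3 of its 5 probe sets, with differences from −0.80 to −0.54. Of these 3, 1 was called with the random block. Gimap6, a GTPase of lymphocytes, gave −0.65 on the called probe set and −0.40 on the other. Cd84, a SLAM family receptor, gave −0.65 on the called probe set and −0.17 on the other, and Kdm6b, a histone demethylase, gave −0.95 on its called one. With the random block these were not called (limma, adjusted p = 0.054, 0.067 and 0.071), and they were called in 2, 1 and 1 of the 12 fits without 1 array. Smarca2, a chromatin remodelling ATPase, gave −0.81 ± 0.08 (SE; limma, adjusted p = 0.0046) on a probe set called in all 12, and −0.10 on its brighter one. Usp34, a deubiquitinase, gave −0.69 on a probe set called in 11 of the 12, with −0.24 at T0 and −1.14 at T6. Over its 3 probe sets the values ran from −0.69 to −0.12.

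The effect was measured on separate arrays at the 2 times. At T0 alone 3 probe sets were called (0.00858%) and at T6 alone 41 (0.117%), and 77 of the 114 were called at neither time alone. Of the 114, 113 had the same sign at both times, which the averaging favours, and 106 had KO and WT arrays that did not overlap at either time in that direction, as did 1106 of all probe sets (3.16%), 468 higher (1.34%) and 638 lower (1.83%). The exception in sign was a dim Aqr probe set, for a splicing helicase, with 0.01 at T0 and −1.58 at T6. Over the 17472 probe sets with mean signal above the median, the T0 and T6 differences had a Pearson r of 0.657 and a Spearman rho of 0.485, and both times may share mice. Of the 1000 such probe sets with the T0 difference largest in size, 93.3% had the same sign at T6.

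The difference was larger in size at T6 for 79 of the 114. No probe set passed the test of the difference between the T6 and T0 effects (0%; limma, smallest adjusted p = 0.075; 1864, or 5.33%, with unadjusted p under 0.05). Among the 114, 41 had an unadjusted p under 0.05 for that difference, with 0.424 as the smallest adjusted p. Cyp51 went from −0.63 at T0 to −1.75 at T6, Idi1 from −0.37 to −1.43 and Hmgcs1 from −0.35 to −0.92, whereas Insig1 (−0.78 and −1.15) and Sqle (−0.99 and −1.30) were closer. Bace1 went the other way, from −3.14 to −1.05, as its WT mean went from 9.06 to 7.14. Its KO means of 5.92 at T0 and 6.09 at T6 lay below the median of all probe sets (6.82), where the added constant affects the size.

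**Figure D5:**
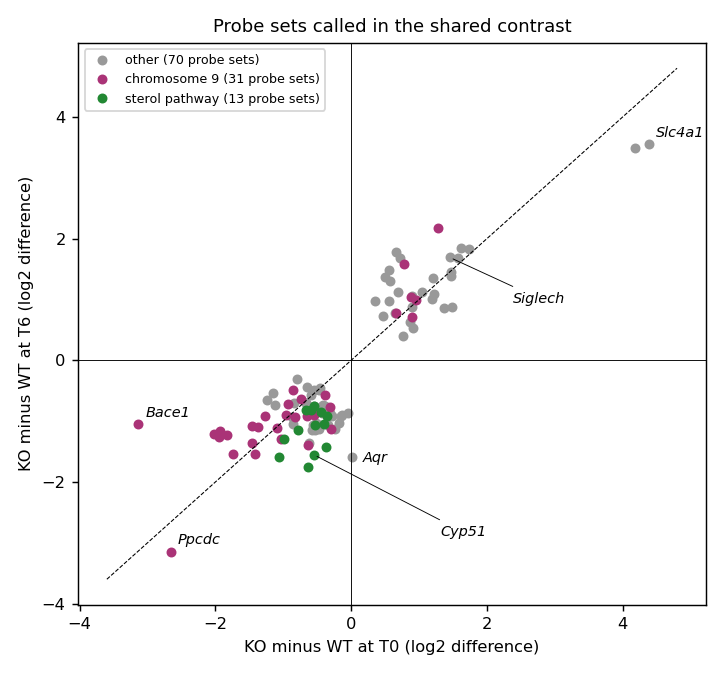
KO minus WT at T6 against KO minus WT at T0 (both log2 differences) for the 114 called probe sets, with sterol pathway genes in green, other chromosome 9 genes in purple and the rest in grey; the dashed line marks equal values. Most points lie in the lower left or upper right quadrant, and most sterol genes lie below the line, with larger falls at T6.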

How the data were processed

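The deposited values are intensities: the authors made 1 linear signal intensity per probe set and array with the Affymetrix GCOS software (version not stated), per the submitters' processing notes; the background and summary steps are not given in the sources used here. Every array had a trimmed mean of 500, which shows a scaling of each array. Of 45101 probe sets, 64 controls, 932 with several symbols and 9160 with none listed were set aside from the fit, which used no filter on low values. limma 3.58.1 in R 4.3.3 (lmFit, eBayes) fitted the 4 group means to log2(signal + 16), with two-sided tests and Benjamini-Hochberg adjustment. Array numbers limit the precision. Each list gene is represented by its brightest probe set. Symbols came from GEO's platform annotation and chromosomes and gene order from RefSeq (GRCm38.p6; 34741 probe sets matched). Members and lists were chosen with earlier results of these data known. Named genes were Scap, the 15 largest rises and falls that were called, brighter than the median and without overlap, members of the lipid lists, up to 4 genes of other lists, and called genes of chromosome 9. The script was tested on simulated data. Alternatives were the added constant, filters, normalization, variance trend, replicate blocks, 2 covariates and arrays left out.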

Additional observations from a re-analysis of the deposited data

Results flagged for a closer look

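Probe sets outside the main fit also differed. When all probe sets except controls were fitted together, 29 of the 10090 with no or several listed gene symbols were called in the shared contrast (0.287%), 9 higher and 20 lower in KO. Of these, 28 had no symbol listed and 1 had several. The probe set with the smallest p-value differed by −2.21 ± 0.13 (SE; limma, adjusted p = 0.00038), with −2.09 at T0 and −2.32 at T6, and the next one by −1.14 (limma, adjusted p = 0.005). Their genes are not named here.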

How the results depend on the processing

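All of the 114 called probe sets that a fit tested kept their direction in every alternative run, which their choice on these same arrays favours. Their number was 74 with an added constant of 1 and 287 with 64, 262 and 560 with filters at percentiles 40 and 60, 59 with 1 probe set a gene above percentile 40, 126 with quantile normalization, 186 with median centring, 365 with a variance trend, and 52 without chromosome 9. With the replicate number in the model the count was 60 (random block), 138 (fixed term, 49.3% higher in KO), 65 (random block, KO replicate 2 left out) and 0 (mean per number, 3 against 3; limma, smallest adjusted p = 0.092, 3734 unadjusted). It was 0 with the blood cell covariate, 0 with that covariate and the random block together (1842 unadjusted), and 0 with the Actb covariate. Leaving out 1 array gave 18 to 113, and leaving out both arrays of a number gave 67, 21 and 18 for WT replicates 1, 2 and 3 and 6, 77 and 33 for KO. Residuals of same-numbered T0 and T6 arrays correlated by 0.11, 0.29 and 0.22 in KO, where every array correlated best with its own number, and 0.12, −0.01 and −0.06 in WT, where replicates 2 and 3 did not. In KO these best matches are a hint of pairing from the data. In WT, T0 replicate 2 correlated best with T6 replicate 3 (0.093) and T0 replicate 3 with T6 replicate 2 (0.11). Over both genotypes the numbers were not taken as pairs, and fits that use the number may join arrays of different WT mice. The cholesterol synthesis median was −0.81 with the covariate and −0.84 with covariate and block. The median of the SREBP regulation and uptake list was −0.15 over all probe sets, −0.27 with median centring, −0.062 with the covariate, −0.072 with covariate and block, and −0.125 with the random block and KO replicate 2 left out; without 1 array it was −0.22 to −0.15 (without KO T0 replicate 2), without both KO replicate 2 arrays −0.125 and without both KO replicate 3 arrays −0.123. Signs turned for Fasn (0.0054 and 0.0286), Scd1 (−0.384 and −0.375) and Cd8a (0.00044 and 0.0051) with the covariate, without and with the block, and for the dim Scap probe set (0.344 and 0.359, and 0.045 with the Actb covariate). The cause of these changes was not tested. Alternatives with the random replicate block and KO replicate 2 left out, and with block and covariate together, were chosen after seeing the data. Of the 114, 11 probe sets had a highest group mean below the median of all (6.82), where signal near background limits the size of a change.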
